A study of Mus musculus with 28 samples.

Results

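Mice that had lost 1 copy of Pax1 were compared with controls that kept both functional copies, in the cells that switch on the Pax1 locus in the E12.5 vertebral column. The comparison took every array of these 2 genotypes on the 3 BeadChips that carried both of them: 5 Pax1+/- arrays (replicates 1 to 5) and 4 WT arrays (replicates 2 to 5), out of 28 arrays in the study. In Pax1+/- embryos 1 Pax1 allele carried an EGFP knock-in that broke the paired box in exon 2. In WT embryos EGFP was fused through an F2A peptide to the end of the Pax1 coding sequence in exon 5, so the control also carried a knock-in cassette, and each group was sorted by the EGFP of its own allele. The 2 alleles came from separately targeted mouse lines. Loss of the copy, the cassette and the line thus change together and cannot be told apart here. Both were on a hybrid 129Sv/C57BL/6/129X1/129S1 background, and each sample was the EGFP(+) fraction of 2 dissected vertebral columns, dissociated with enzymes and sorted by flow cytometry. The chips are called 1, 2 and 3 here. Chip 1 held WT replicates 3 and 4 with Pax1+/- replicate 3, chip 2 held WT replicate 5 with Pax1+/- replicates 4 and 5, and chip 3 held WT replicate 2 with Pax1+/- replicates 1 and 2. The same chips carried 5 Pax1-/- arrays and 3 arrays of GFP(-) cells, which are used below for levels, for a comparison of Pax1-/- with Pax1+/- and in alternative fits.

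Pax1 encodes a paired-box transcription factor of the sclerotome, the part of the somite that builds vertebrae and intervertebral discs. Its paralogue Pax9 is active in overlapping cells and covers part of its function. In mice, loss of a single Pax1 copy has mild effects at most on the skeleton, whereas loss of both genes removes vertebral bodies and discs. The question put to these arrays was which genes, if any, already differ in the anlagen cells when a single copy is gone.

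Levels are log2 normalized intensities, so a difference of 1 is a doubling, and differences are given as Pax1+/- minus WT. Between 45.5% and 48.2% of probes were detected above the negative control probes on each of the 9 arrays. Arrays correlated between 0.943 and 0.965 across genotypes (median 0.952), between 0.943 and 0.962 within WT (0.950) and between 0.950 and 0.973 within Pax1+/- (0.964). The ranges overlapped, with the highest median within Pax1+/-. The leading component of variation held 25.0% of the variance and set the 3 arrays of chip 1 and WT replicate 2 on one side and the other 5 arrays on the other. The first side held WT replicates 2 to 4 with Pax1+/- replicate 3. The second held WT replicate 5 with Pax1+/- replicates 1, 2, 4 and 5, so the split also followed the genotype in part. Xist, the RNA that coats the inactive X chromosome, was at 9.93, 10.14 and 10.42 in WT replicates 2 to 4 and at 4.43 in WT replicate 5. In Pax1+/- it was at 10.26 and 9.52 in replicates 3 and 5 and at 4.58 to 4.71 in replicates 1, 2 and 4. The embryos' sex is not given in the labels, and the male to female make-up of the pools was uneven between the genotypes by this measure. In a bulk sample of sorted cells, fewer cells of a type and less RNA per cell cannot be told apart.

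Pax1 itself was lower in Pax1+/- cells by a small amount, which rested mainly on 1 of its 2 probes. The gene's level, the mean of its 2 probes, was 10.92, 10.94, 10.91, 10.85 and 10.97 in Pax1+/- replicates 1 to 5. In WT replicates 2 to 5 it was 11.26, 11.24, 11.16 and 11.27. Every Pax1+/- array lay below every WT array. The difference was -0.31 (SE 0.096), with a 95% interval of -0.53 to -0.10. Over all genes it did not pass (limma, adjusted p = 0.384), and the exact permutation test over the 9 arrays gave p = 0.00794, two-sided, the smallest that 5 against 4 arrays allow. Within chips 1, 2 and 3 the difference was -0.29, -0.36 and -0.33.

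The 2 Pax1 probes did not carry the difference equally. Probe ILMN_2816956 was at 10.36, 10.34, 9.80, 10.18 and 10.36 in Pax1+/- and at 10.89, 10.52, 10.56 and 10.91 in WT, a difference of -0.51 (SE 0.16) without overlap. Probe ILMN_2561517 read 11.48, 11.54, 12.02, 11.53 and 11.58 in Pax1+/- and 11.63, 11.95, 11.77 and 11.64 in WT, a difference of -0.12 (SE 0.15) with overlap. The narrow spread of the gene's level came from averaging, since Pax1+/- replicate 3 was the lowest of its group on the first probe and the highest on the second. Over 29 alternative settings the gene's difference lay between -0.46 and -0.12, and it was called in 0 of them. Neither probe reads the loss of the allele directly. When the arrays of these chips were normalized together, the Pax1-/- arrays ranged from 10.66 to 10.89 on the first probe and from 11.08 to 11.42 on the second, although they hold no intact copy. On the first probe they thus lay within the WT range and above every Pax1+/- array given above, so its signal did not follow the number of intact copies. On the second they lay below the arrays of both other genotypes. The probes' positions in the transcript were not used here. The GFP(-) cells ranged from 5.02 to 8.30 and from 4.48 to 9.26 on the same probes, below every EGFP(+) array of either genotype.

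Pax9 did not differ beyond its spread. Its single probe read 7.61, 7.62, 7.75, 7.23 and 7.25 in Pax1+/- and 6.22, 6.67, 7.20 and 7.76 in WT. The WT arrays spread widely and enclosed the whole Pax1+/- range. The difference was 0.53 (SE 0.28) with a 95% interval of -0.09 to 1.15 (limma, adjusted p = 0.647), and the exact permutation test gave p = 0.175. Within chips 1, 2 and 3 it was 0.82, -0.52 and 1.40, so its sign turned on chip 2.

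**Figure D1:**
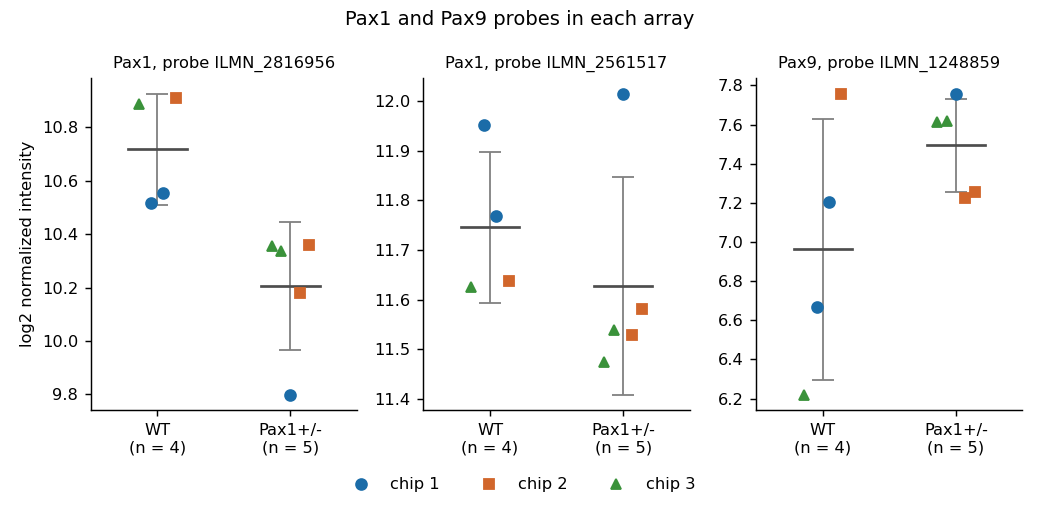
Log2 normalized intensity of the 2 Pax1 probes and the Pax9 probe in each WT and Pax1+/- array, with the mean (bar) and SD (whisker) of each group, and colour and shape for the chip. The groups are apart on the first Pax1 probe and overlap on the second and on Pax9.

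Few genes were called between the genotypes, and genes that were not called may still differ. Of 11561 genes tested, 4 passed an adjusted p under 0.05 with a fold of at least 1.5, a share of 0.0346%. Egr1, Esrp1 and Emx2 were lower in Pax1+/- cells and A930005H10Rik was higher. At an unadjusted p under 0.05 with the same fold, 162 genes were higher (1.4%) and 198 lower (1.71%). All 5 Pax1+/- arrays lay above all 4 WT arrays for 161 genes (1.39%) and below them for 156 genes (1.35%). The SE of the difference was 0.18 for the median gene, and 109 genes had a difference of at least 1 in either direction.

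The number of calls fell below 4 without any 1 of 8 arrays and rose without the ninth. Without WT replicate 5 it was 22 (7 higher, 15 lower), without WT replicate 2 it was 3, and without WT replicate 4 or Pax1+/- replicate 3 it was 1. It was 0 without WT replicate 3 or without any 1 of Pax1+/- replicates 1, 2, 4 and 5. With the chip as a fixed block it was 0, where the lowest adjusted p was 0.0942 and the differences were -1.43 for Egr1, -2.19 for Esrp1, -1.11 for Emx2 and 1.86 for A930005H10Rik, and with the chip as a random block it was 7 (2 higher, 5 lower), which included all 4. With the Xist level of each array as a covariate, a choice made after seeing the data, it was 0 with a lowest adjusted p of 0.0517. In that fit the differences of the 4 genes stayed between -2.04 and 1.96.

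**Figure D2:**
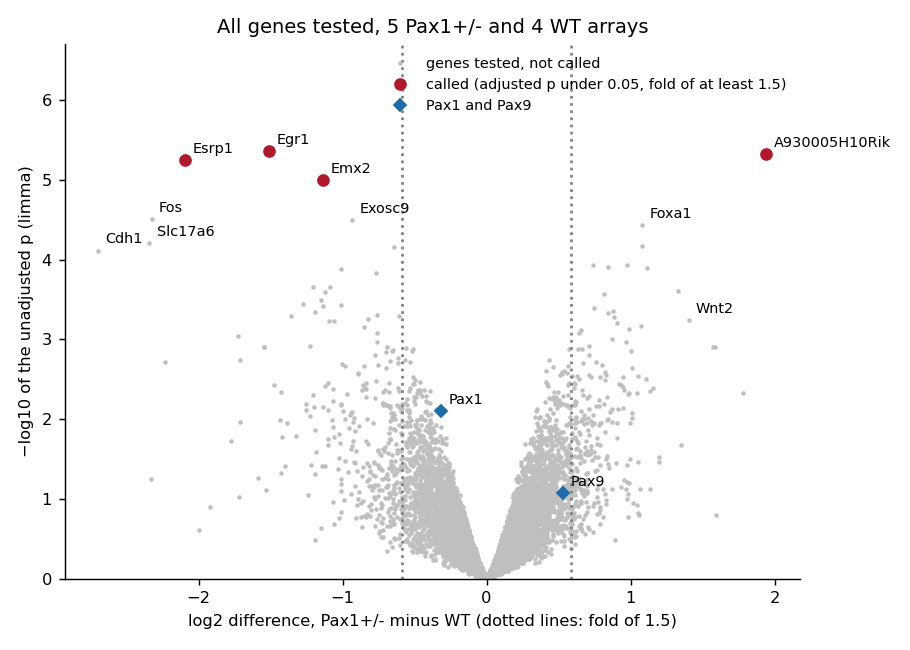
Each of the 11561 genes by its log2 difference (x axis, Pax1+/- minus WT) and the −log10 of its unadjusted p (y axis), with the 4 called genes in red and Pax1 and Pax9 in blue. Pax1 lies inside the fold of 1.5, and Fos, Cdh1 and Slc17a6 have large differences without passing the adjusted threshold.

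Among immediate early genes, Egr1 fell in Pax1+/- cells, and Fos, Ier2 and Ccn1 were lower in every array without passing the threshold. Egr1, a zinc finger factor switched on within minutes of growth factor or stress signals and also active in tendon progenitors, was at 9.80, 10.11, 10.54, 9.76 and 10.16 in Pax1+/-. In WT it was at 11.76, 11.66, 11.50 and 11.42. The group means were 10.07 ± 0.31 (SD, n = 5) and 11.59 ± 0.15 (SD, n = 4). Every WT array was above every Pax1+/- array, with the lowest WT array at 11.42 and the highest Pax1+/- array at 10.54. Egr1 fell by 1.51 (SE 0.17, limma adjusted p = 0.0218), and the difference was -1.04, -1.46 and -1.80 within chips 1, 2 and 3. Its call was kept in 2 of the 9 fits that left out 1 array, without Pax1+/- replicate 3 and without WT replicate 5.

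Fos, the AP-1 subunit that responds with Egr1 in most cells, had a larger difference and a wider spread. It was at 5.30, 4.66, 5.42, 4.95 and 5.02 in Pax1+/-, where 2 of 5 arrays detected it. In WT, where all 4 arrays detected it, it was at 6.40, 8.20, 7.18 and 7.82. The groups did not overlap, and the difference was -2.33 (SE 0.33, limma adjusted p = 0.061). Ier2, a short-lived transcript of the same response, was at 5.24 to 5.89 in Pax1+/- and at 6.27 to 7.48 in WT, a difference of -1.27 (adjusted p = 0.169). Ccn1, a secreted matricellular protein induced by serum, was at 6.92 to 7.57 against 7.60 to 8.01, a difference of -0.65 (adjusted p = 0.25).

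Egr1, Fos, Ier2 and Ccn1 were each lower in every Pax1+/- array than in every WT array. The promoters of Fos and Ccn1 are shown, because the promoter set used had no entry for Egr1 or Ier2. They were searched for TGACG, the core of the cyclic AMP response element, on both strands. Each runs from 250 bases before to 50 bases after the annotated start, from RefSeq on GRCm38.p6, and capitals mark TGACG on either strand, so CGTCA where the match is on the other strand.
Fos, chr12:85473640-85473939, plus strand: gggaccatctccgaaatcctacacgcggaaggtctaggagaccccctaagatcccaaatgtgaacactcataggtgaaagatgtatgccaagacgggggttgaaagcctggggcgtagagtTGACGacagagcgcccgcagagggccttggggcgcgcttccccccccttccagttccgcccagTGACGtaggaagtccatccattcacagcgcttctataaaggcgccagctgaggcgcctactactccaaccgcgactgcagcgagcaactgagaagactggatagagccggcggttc
Ccn1, chr3:145649936-145650235, minus strand: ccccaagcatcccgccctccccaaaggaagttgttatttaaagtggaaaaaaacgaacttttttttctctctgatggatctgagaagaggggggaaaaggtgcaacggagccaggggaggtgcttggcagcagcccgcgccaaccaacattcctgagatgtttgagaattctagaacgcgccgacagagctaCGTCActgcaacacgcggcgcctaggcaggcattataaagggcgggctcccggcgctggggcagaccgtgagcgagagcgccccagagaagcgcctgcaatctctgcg
The Fos window held 2 matches and the Ccn1 window 1. The same 5 letters were in 20.8% of the 32851 promoter windows of this length, so the match is common.

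Most of the other immediate early genes lay near 0. Of 28 tested members, 1 was called (lower) and 5 were lower at an unadjusted p under 0.05 with a fold of at least 1.5, with none higher. Over all genes 0.0346% were called, and at the unadjusted p with the fold 1.71% were lower and 1.4% higher. Besides Egr1, Fos, Ier2 and Ccn1 the fifth was Gadd45g, a growth arrest gene, at 7.00 to 8.14 against 7.83 to 8.38, with overlap. The 4 without overlap were all lower, where 1.35% of all genes were lower and 1.39% higher without overlap. The list's median difference was -0.09, against 0.02 over all genes, and the list's mean was 7.72 to 7.92 in Pax1+/- and 7.98 to 8.13 in WT. Jun, the partner of Fos in AP-1, was at 10.81 on average in Pax1+/- and 10.91 in WT, a difference of -0.10. Dnajb1, a heat shock chaperone, differed by 0.27 and Egr2 by 0.08. The dissociation and sorting that all samples went through can itself switch on these genes, and handling times are not given in the labels, so the part of handling in the result was not tested.

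**Figure D3:**
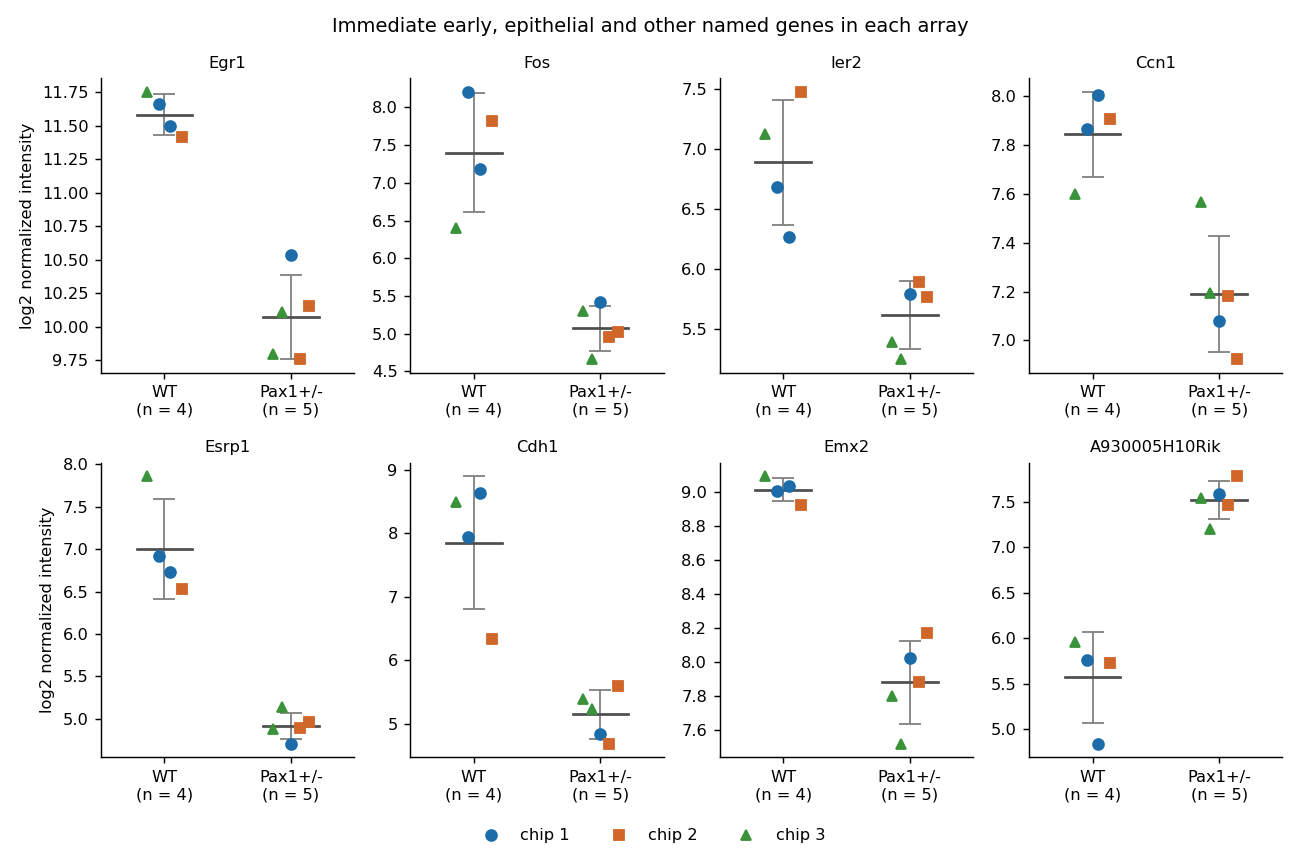
Log2 normalized intensity of 8 genes in each array (points, coloured by chip) with group mean and SD. In each panel the 5 Pax1+/- arrays and the 4 WT arrays do not overlap, A930005H10Rik is the panel in which Pax1+/- is higher, and Ccn1 has the narrowest gap.

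Among epithelial genes, Esrp1 fell in Pax1+/- cells, Cdh1 was lower in every Pax1+/- array without passing the threshold, and Cldn6 and Esrp2 were not detected on any Pax1+/- array. Esrp1, a splicing factor of epithelial cells, was at 4.89, 5.14, 4.71, 4.89 and 4.96 in Pax1+/- and at 7.86, 6.92, 6.72 and 6.53 in WT. It was detected in 1 of 5 Pax1+/- arrays and in all 4 WT arrays, so the size of the difference rests on Pax1+/- values mostly not above background. Esrp1 fell by 2.09 (SE 0.24, limma adjusted p = 0.0218), and the difference was -2.11, -1.60 and -2.85 within the 3 chips. The call was kept in 2 of the 9 fits that left out 1 array, without WT replicate 2 and without WT replicate 5.

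Cdh1, the adhesion molecule E-cadherin, was at 5.39, 5.24, 4.83, 4.69 and 5.59 in Pax1+/- and at 8.48, 7.94, 8.62 and 6.34 in WT. The difference of -2.70 (SE 0.42) was the largest in either direction among the genes tested and missed the threshold (adjusted p = 0.0813). Cdh1 was detected in 3 of 5 Pax1+/- arrays, so its size rests partly on values not above background. Over 29 alternative settings its difference ran from -3.71 to -1.34. WT replicate 5 was the lowest WT array, and without it Cdh1 was called with a difference of -3.20. Cldn6, a tight junction protein, was detected on no Pax1+/- array and on 3 of 4 WT arrays, at 6.68, 6.39, 6.95 and 4.90. Its WT mean was at least 2.30-fold above the Pax1+/- mean. This bound sets the Pax1+/- arrays at the lowest level that was detected on each array. It is for the group means and leaves out the spread between arrays. Cldn6 was not called (limma, adjusted p = 0.25), its 95% interval was -2.33 to -0.77, and its chip 2 difference was -0.21. Esrp2, the paralogue of Esrp1, was likewise undetected on every Pax1+/- array and detected on 3 of 4 WT arrays. Its WT mean was at least 1.30-fold higher (limma, adjusted p = 0.343).

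In the epithelial list 10 of 20 genes passed the filter, and 4 were lower at an unadjusted p under 0.05 with the fold (Esrp1, Cdh1, Cldn6 and Esrp2). Over all genes the share lower in this way was 1.71%. Cldn6 and Esrp2 passed the filter, detection in at least 3 arrays, through WT arrays alone, and Esrp1 would have too. Their lower values are thus partly set by the filter and add no separate support, also in the list mean. For Cldn6 and Esrp2 the fourth WT array was not detected either, so its order against the Pax1+/- arrays was not measured. Grhl2, a transcription factor of epithelia, differed by -0.94 (SE 0.50) with overlap. The keratins Krt8, Krt18 and Krt5 differed by 0.17, -0.14 and 0.12, and Cldn7 by 0.27. The mean level of the list was 5.10 to 5.37 in Pax1+/- and 5.56 to 6.48 in WT. The GFP(-) cells of the same chips, in a joint normalization, had means of 5.63 to 6.70, and Cdh1 there averaged 8.81. The 5 Pax1-/- arrays ranged from 5.23 to 6.38 on the list mean. Cdh1 averaged 7.17 in Pax1-/-, and Esrp1 5.97, both between the other genotypes. Whether carry-over of epithelial cells into the sorted fraction differed was not tested.

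Emx2, a homeobox factor of the urogenital ridge and forebrain that also acts in the girdles of the limbs, was at 7.80, 7.52, 8.03, 7.88 and 8.17 in Pax1+/-. In WT it was at 9.09, 9.01, 9.04 and 8.93, an SD of 0.070. Emx2 fell by 1.13 (SE 0.14, limma adjusted p = 0.0294), and the difference lay between -1.43 and -0.90 within the 3 chips. Its call was kept in 1 of the 9 fits that left out 1 array, the one without WT replicate 5. The Pax1-/- arrays of these chips ranged from 7.55 to 8.22, close to the Pax1+/- arrays, and the GFP(-) arrays from 8.55 to 9.14, close to WT.

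A930005H10Rik, a transcript with no assigned function in the annotation used, was the only gene called higher. It was at 7.54, 7.21, 7.58, 7.47 and 7.78 in Pax1+/- and at 5.96, 5.76, 4.84 and 5.72 in WT, where WT replicate 4 was the lowest and 3 of 4 arrays detected it. The difference was 1.94 (SE 0.22, limma adjusted p = 0.0218), and 2.28, 1.90 and 1.42 within the 3 chips. The call was kept in 3 of the 9 fits that left out 1 array, without WT replicate 2, 4 or 5. The Pax1-/- arrays ranged from 6.31 to 7.18 and the GFP(-) arrays from 5.52 to 6.45.

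Among genes that were not called, 14 higher and 12 lower had arrays without overlap, a fold of at least 1.5 and the smallest p-values in their direction. Their differences ran from 0.74 to 1.40 upward and from -2.70 to -0.64 downward, with limma adjusted p between 0.061 and 0.187. Rfng, Neurod2 and Galnt14 were detected on 1 of 5 Pax1+/- arrays, Fos on 2, and all of them on 4 WT arrays. Tmem170 was detected on 5 Pax1+/- arrays and 1 WT array. The brighter group alone would have passed these genes through the filter, so their separation is partly set by it. The transcription factor Foxa1, known from notochord, floor plate and endoderm, was at 7.49, 7.70, 8.13, 7.63 and 7.65 in Pax1+/- and at 6.87, 6.71, 6.54 and 6.42 in WT. The difference was 1.08 (adjusted p = 0.061). Of the notochord and floor plate genes Shh and Chrd, the first differed by -0.16 and the second by -0.13, both with overlap. Wnt2, a secreted Wnt ligand, was at 7.52, 6.56, 7.15, 7.92 and 7.31 against 5.43, 5.72, 5.87 and 6.52, a difference of 1.40 (adjusted p = 0.179). For Wnt2 the groups nearly met, at 6.56 in Pax1+/- replicate 2 and 6.52 in WT replicate 5.

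Other genes of this kind had varied functions. Mocs1, an enzyme of molybdenum cofactor synthesis, differed by 1.08, Slc29a4, a monoamine transporter, by 0.98 and Gstt1, a glutathione transferase, by 0.85. Mgst2, a microsomal glutathione transferase, differed by -1.13 and Slc15a2, a peptide transporter, by -1.15. B3galt6, which builds the linker of chondroitin and heparan sulfate chains on proteoglycans, was at 6.09 to 6.95 in Pax1+/- and at 7.29 to 8.04 in WT, a difference of -1.21 (adjusted p = 0.135). Rfng, a glycosyltransferase that modifies Notch receptors, was at 4.66 to 4.97 against 5.41 to 5.80, a difference of -0.77 (adjusted p = 0.0999), and was detected in 1 of 5 Pax1+/- arrays. Lamtor3, a scaffold of the MAP kinase and mTORC1 pathways on late endosomes, had the tightest groups of these, at 8.28 to 8.43 against 8.90 to 9.08. Its difference was -0.64 (adjusted p = 0.0802).

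The neural genes Slc17a6, a vesicular glutamate transporter, and Neurod2, a neuronal transcription factor, were also of this kind. Slc17a6 was at 4.60 to 4.98 in Pax1+/- and at 7.68, 8.06, 6.75 and 5.98 in WT, a difference of -2.34 (adjusted p = 0.0802). It was detected in 3 of 5 Pax1+/- arrays, and over 29 alternative settings its difference ran from -4.44 to -1.14. Neurod2, detected in 1 of 5 Pax1+/- arrays and all 4 WT arrays, differed by -1.08 (adjusted p = 0.135). Both were far higher in the GFP(-) cells, where Slc17a6 averaged 10.27 and Neurod2 9.12. The WT array nearest to Pax1+/- was replicate 5 for both.

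No gene of the disc and vertebra programmes was called. A list of 24 genes was taken from the study's text on Pax1, Pax9 and EGFP(+) cells. It leaves out other genes named there, and it rests partly on arrays of the same study and so is no independent evidence of a direction. None of the 24 was called. Their median difference was -0.04, 10 lay above 0 and 14 below, and none had arrays without overlap. The differences ran from -0.44 for Sox6 to 0.49 for Acan. Ccn2, a matricellular target of TGF-B signalling, was the one of the 24 with an unadjusted p under 0.05, at 11.39 to 11.81 in Pax1+/- and 11.20 to 11.46 in WT, a difference of 0.28 (limma, adjusted p = 0.57). Of genes named in the same text but not on the list, Gdf10 was higher in every Pax1+/- array by 0.64 (SE 0.15, adjusted p = 0.25) and Col11a1, a fibril collagen chain of cartilage, differed by -0.41 (SE 0.18, adjusted p = 0.58) with overlap.

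Acan, the core protein of aggrecan, was at 7.64, 7.57, 6.53, 7.23 and 7.10 in Pax1+/- and at 7.16, 6.17, 6.00 and 7.55 in WT. The 3 arrays of chip 1 were low in both genotypes. With the chip as a fixed block the difference was 0.17. Its interval without the block was -0.27 to 1.26. Sox9, the master regulator of chondrogenesis, differed by 0.22 with an interval of -0.29 to 0.72, and Sox5, its partner, by 0.10 with an interval of -0.25 to 0.45. For Col2a1, the main collagen of cartilage, the difference was 0.20 with an interval of -0.14 to 0.55. Foxc2, a forkhead factor of the sclerotome, differed by 0.16 with an interval of -0.08 to 0.40. Wwp2, the host of a cartilage microRNA, differed by -0.02 with an interval of -0.33 to 0.28.

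Of 44 gene lists, 41 held no called gene, and Egr1 and Esrp1 were the only called genes on any of them. Of 19 cartilage matrix genes tested none was called or past an unadjusted p under 0.05 with the fold, and the list's mean followed the chip. It was 6.65 to 6.73 on chip 1 and 7.09 to 7.21 on chips 2 and 3, whatever the genotype. The 19 sclerotome and disc anlage genes had a median of 0.13, and Tbx18, which keeps the anterior and posterior somite apart, differed by 0.36 (SE 0.14). Hedgehog signalling, the notochord and floor plate signal that induces Pax1, had 17 genes tested, a median of 0.09 and no call. The 30 BMP and GDF genes had a median of 0.01, with Gdf10, a BMP family ligand, at 9.54 to 9.88 against 8.84 to 9.49, a difference of 0.64 without overlap (adjusted p = 0.25). The 21 TGF-B genes had a median of 0.06, and Acvr1b, a type I activin receptor, differed by -0.69 with overlap.

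Among the 41 Wnt genes the median was near 0. At an unadjusted p under 0.05 with the fold, which 1.4% of all genes passed higher and 1.71% lower, 3 were higher and 1 lower. Besides Wnt2 the higher ones were Rspo3, a secreted amplifier of Wnt signals, at 1.05 (SE 0.27), and Lef1, a nuclear mediator of it, at 0.84 (SE 0.27). The lower one was Lgr5, a receptor for R-spondins, at -0.66 (SE 0.28). None of these 3 was free of overlap. In the FGF list Etv4, a transcription factor induced by FGF, was at 4.67 to 5.28 against 5.62 to 6.31, a difference of -0.75 without overlap (adjusted p = 0.301). Its relatives Etv5 and Etv1 differed by -0.41 and -0.47 with overlap. Cell cycle, ribosomal protein and oxidative phosphorylation genes had medians of 0.09, 0.03 and 0.07 and no call.

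Tendon genes and the middle Hox genes had list means that were lower in every Pax1+/- array and medians below 0 within each chip. Of 12 tendon genes tested, 9 lay below 0, where 5373 of all 11561 genes did. The tendon list's median was -0.40, with medians of -0.52, -0.43 and -0.16 within chips 1, 2 and 3. The list's mean was 7.60 to 7.83 in Pax1+/- and 8.05 to 8.29 in WT. Egr1, which is also on the immediate early list, was the only called gene here, and Etv4 is on it as well. Kera, keratocan of the corneal and tendon matrix, was at 4.62, 6.72, 6.03, 4.79 and 6.84 against 6.51, 7.17, 7.89 and 8.48, a difference of -1.71 (SE 0.55) with overlap. Col14a1, a fibril-associated collagen, differed by -0.46 (SE 0.15), whereas Scx, the tendon lineage factor, differed by -0.16 (SE 0.20).

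Of 10 Hox genes of paralogue groups 6 to 9, which pattern the trunk, 9 lay below 0. The median was -0.25 overall and -0.25, -0.27 and -0.23 within the 3 chips. The mean of the list was 7.91 to 8.07 in Pax1+/- and 8.22 to 8.33 in WT, again without overlap. No member was called or past an unadjusted p under 0.05 with the fold. The median was 0.01 for groups 1 to 5 and -0.11 for groups 10 to 13. The Pax1-/- arrays had list means of 8.27 to 8.59 and the GFP(-) arrays 8.74 to 9.73 for groups 6 to 9. The axial extent of each dissection is not given in the labels, and its part in this result was not tested. Of 24 genes of fibril collagens and fibril assembly, 14 lay below 0 and none was called, with a median of -0.12 and medians of -0.16, -0.09 and -0.29 within the 3 chips. That list's mean was 7.86 to 7.97 in Pax1+/- and reached 8.10 in WT, without overlap. In all, 6 of the 44 list means lay lower in every Pax1+/- array than in every WT array, and 0 lay higher. These were the tendon, Hox 6 to 9, fibril collagen, immediate early, epithelial and thyroid hormone lists. They are not independent, since Egr1 is on both the tendon and the immediate early list. Like the fibril collagen list, the thyroid hormone list barely separated, with a highest Pax1+/- mean of 6.0525 and a lowest WT mean of 6.0558. How many lists would separate by the placing of arrays alone was not tested.

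**Figure D4:**
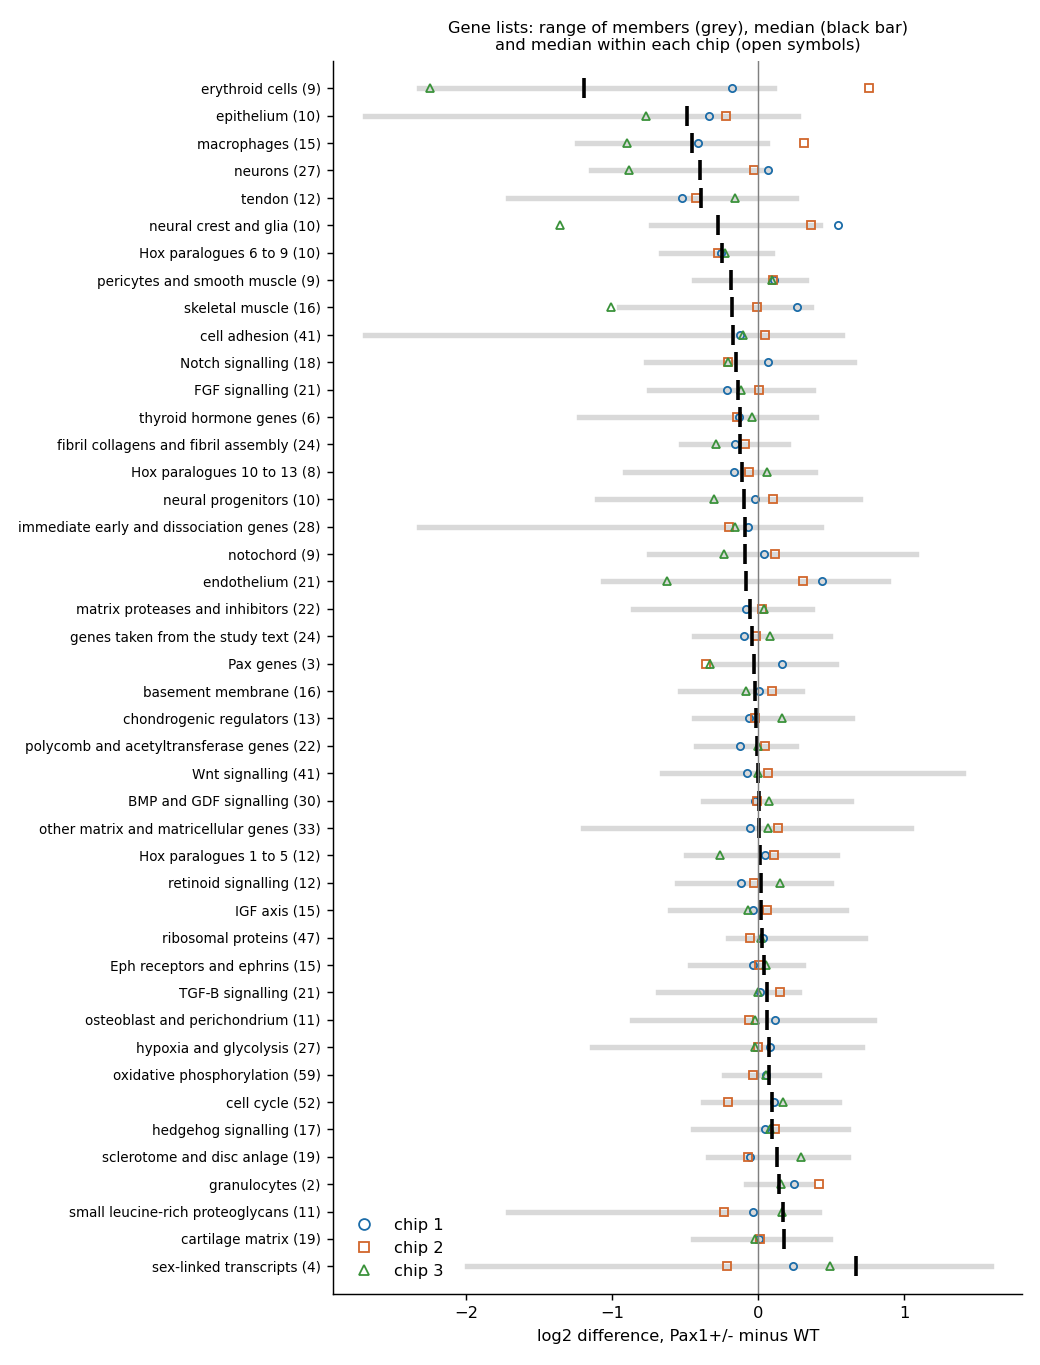
Log2 difference (x axis, Pax1+/- minus WT) for 44 gene lists, with the number of genes tested in brackets. The grey line spans the members, the black bar is their median, and open symbols are the medians within each chip, which lie close together for Hox paralogues 6 to 9 and lie far apart for erythroid, neural crest and neuronal genes.

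No marker of another cell type was called apart from Esrp1, and the medians of these lists differed between chips. Of 27 neuronal genes tested, 25 lay below 0 with a median of -0.40 and no call, and the medians within chips 1, 2 and 3 were 0.07, -0.03 and -0.89. Syt4, a synaptotagmin, was at 7.32 to 7.85 against 7.89 to 8.94 (adjusted p = 0.179), and Dcx, doublecortin of migrating neurons, differed by -0.94 with overlap. The list mean was 6.15 to 6.85 in Pax1+/- and 6.43 to 7.32 in WT, against 8.52 to 8.74 in the GFP(-) cells.

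Of 15 macrophage genes 14 lay below 0, with a median of -0.45 and within-chip medians of -0.41, 0.31 and -0.90. Over all 11561 genes 5373 lay below 0. Cx3cr1 was detected on no Pax1+/- array and on 4 WT arrays, so it passed the filter through WT alone. Ctss and Lyz1, detected on 1 and 2 of 5 Pax1+/- arrays and each on 3 of 4 WT arrays, would have too. Their lower values, and so the count below 0, are partly set by the filter. The lysozymes Lyz1 and Lyz2, which are near copies and may share signal, were at 4.63 to 5.32 in all Pax1+/- arrays and at 5.86 to 7.12 in WT replicates 2 to 4, but at 4.85 and 4.68 in WT replicate 5. The 9 erythroid genes had a median of -1.19 and within-chip medians of -0.18, 0.76 and -2.25. Their list mean was 6.04 to 8.32 in Pax1+/- and 6.37 to 8.77 in WT, with WT replicate 5 the lowest of its group, and 11.10 to 11.32 in GFP(-) cells. Of 16 skeletal muscle genes none was called, and the medians within the chips were 0.27, -0.01 and -1.01. Endothelial genes had a median of -0.08 over 21 genes, with within-chip medians of 0.44, 0.30 and -0.62. Among the 22 genes called without WT replicate 5 were the lysozymes Lyz1 (-1.69) and Lyz2 (-1.44), the globins Hbb-bs (-2.54) and Hbb-bt (-2.54), and Syt4 (-1.29). The part of these markers in the other calls was not tested.

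**Figure D5:**
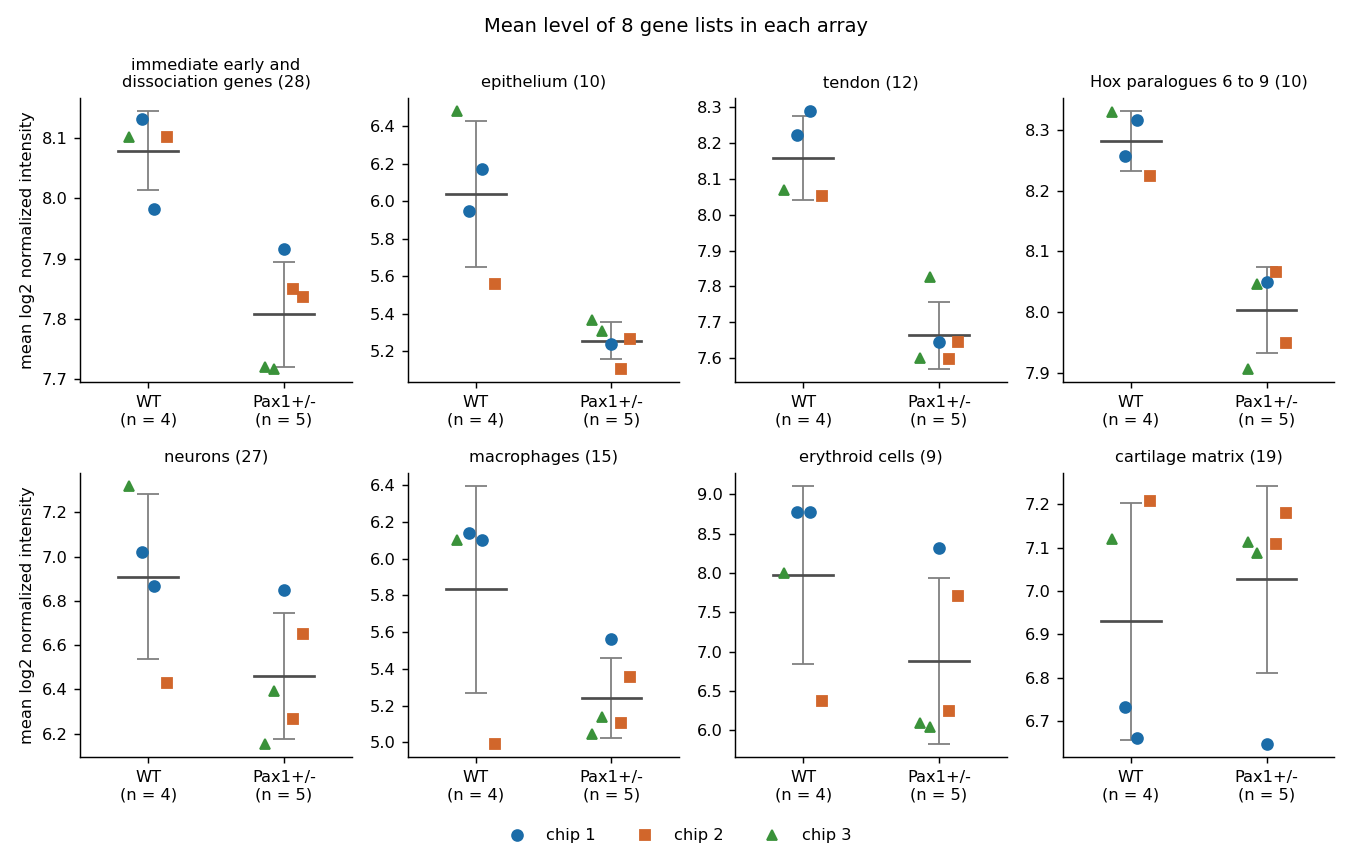
Mean log2 normalized intensity of 8 gene lists in each array, with group mean and SD and colours for the chip. The upper 4 lists do not overlap between WT and Pax1+/-, while neuronal, macrophage, erythroid and cartilage matrix genes overlap, and WT replicate 5 (chip 2) lies lowest among WT arrays for the first 3 of these.

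Pax1-/- and Pax1+/- arrays of the same chips were compared for the effect of the second copy. This comparison shares the 5 Pax1+/- arrays with the first, so a gene that was extreme in them enters both. Of 12271 genes tested, 3 were called between Pax1-/- and Pax1+/- (0.0244%), and none of them was among the 4 above. Exosc9 and Cbll1 were among the uncalled genes above whose Pax1+/- and WT arrays did not overlap. In both, Pax1+/- was the group furthest from the other genotypes. Exosc9, a subunit of the RNA exosome, was higher in Pax1-/- by 1.54 (limma adjusted p = 0.000561). It was at 5.94 to 6.21 in Pax1+/- and at 6.71 to 7.19 in WT, and Pax1-/- averaged 7.63. Tmem87a, a membrane protein of the Golgi, was higher in Pax1-/- by 1.84 (adjusted p = 0.000561), and Cbll1, an E3 ubiquitin ligase that targets E-cadherin, was lower by 1.30 (adjusted p = 0.0459). Cbll1 was at 6.22 to 6.85 in Pax1+/- and at 5.79 to 6.05 in WT, and Pax1-/- averaged 5.31. Egr1 was at 10.25 to 11.09 in Pax1-/-, a difference of 0.73 from Pax1+/- (SE 0.18, adjusted p = 0.171). Fos differed there by 1.16 (adjusted p = 0.383), Cdh1 by 2.03 (adjusted p = 0.127) and Emx2 by -0.05 (adjusted p = 0.958). For Pax1 the difference was 0.07 (adjusted p = 0.86).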

How the data were processed

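The authors extracted signals of Illumina MouseWG-6 BeadChips with BeadStudio and deposited background-subtracted intensities of 45281 probes per array, not normalized, with a detection p-value against the chip's negative control probes. They also deposited quantile normalized log2 values made with GeneSpring GX, used here as an alternative. RNA was amplified and biotin-labelled before hybridization, which can alter relative levels. Groups came from the genotype labels. The study's methods call the replicates biological, and litters are not given, so p-values measure the spread between these samples.

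Here the intensities of the 9 arrays were corrected by normexp (limma 3.58.1, R 4.3.3, offset 16), quantile normalized and put on the log2 scale. Probes with a detection p under 0.05 in at least 3 of the 9 arrays were kept (23051, of which 19022 had 1 gene symbol). Of all probes 34885 had 1 gene symbol in the platform annotation, 18 several and 10378 none, and only the first were used. A gene's value was the mean of its kept probes (11561 genes, 4853 of them with several probes). Genotypes were compared by limma (lmFit and eBayes, no covariate), with Benjamini-Hochberg adjustment over all genes, and a call needed an adjusted p under 0.05 and a fold of at least 1.5. Pax1-/- arrays were compared with Pax1+/- in a fit of 14 arrays and 12271 genes, and levels in Pax1-/- and GFP(-) arrays come from a joint normalization of the 17 arrays of the chips. Pax1 and Pax9 were also tested by an exact permutation test.

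The genes named follow a rule: Pax1 and Pax9, called genes, then the genes of smallest p without overlap and with a fold of at least 1.5 up to 15 per direction, from each list the 3 members of smallest p and any with an unadjusted p under 0.05 and the fold, and every gene of a 24 gene list taken from the study's text, which is not complete. Jun, Dnajb1, Egr2, Krt18, Krt5, Cldn7, Grhl2, Shh, Chrd, Etv1, Etv5, Scx, Tmem87a, Hbb-bs and Hbb-bt fall outside it and were chosen after their values were seen. The comparison and the gene lists were chosen with earlier results of these data known. The array number limits the precision. Alternatives covered background, normalization, filter, probe choice, chip and replicate block, samples in the fit, array weights, the variance model, the call, and leaving out each array.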

Additional observations from a re-analysis of the deposited data

Results flagged for a closer look

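Among the 182 groups of named genes checked for 1 array apart from the rest of its group, 13 had one, and chance flags about 1 in 20. In WT, replicate 5 stood apart for Cbll1 (6.05, the others at 5.79 to 5.82), Crym (6.05, the others at 6.78 to 6.91), Igfbp3 (7.42, the others at 8.04 to 8.12) and Cbx2 (8.20, the others at 7.81 to 7.87). WT replicate 4 stood apart for Exosc9 (6.71, the others at 7.12 to 7.19) and Phf20 (8.46, the others at 8.86 to 8.88). WT replicate 3 did so for Etv4 (6.31, the others at 5.62 to 5.72) and WT replicate 2 for Thbs2 (5.64, the others at 6.20 to 6.25). In Pax1+/-, replicate 3 stood apart for Ctss (5.75, the others at 4.66 to 4.83), Smad3 (10.36, the others at 10.70 to 10.83) and Sim2 (5.64, the others at 7.38 to 8.04). Pax1+/- replicate 4 did so for Neurod2 (5.30, the others at 4.63 to 4.80) and Pax1+/- replicate 1 for Acvr1b (5.83, the others at 4.53 to 4.86).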

How the results depend on the processing

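The count of 4 called genes ranged from 0 to 22 over the fits that left out 1 array, and the count of 2 called genes on the lists from 0 to 7. Signals floored at 1, the chip as a fixed block, each of the 3 within-chip contrasts, leaving out chip 1 or chip 3, and the Xist covariate each gave 0 calls and 0 on the lists, and leaving out chip 2 gave 5 calls, 0 of them among the 4. Median centring gave 8 calls (5 on the lists), the stricter filter 9 (4), the chip as a random block 7 (4), array weights 8 (5) and the trend with robust estimation 10 (5). With Pax1-/- arrays in the fit there were 10 calls, and 8 with the chip blocked as well (1 on the lists). With 2 WT arrays of another chip added there were 5 calls, of which 2, A930005H10Rik and Egr1, were among the 4. Over 29 alternative settings A930005H10Rik was called in 16, Egr1 in 15, Emx2 in 13 and Esrp1 in 11. The Esrp1 difference ran from -3.24 to -0.95 over these settings. The authors' log2 values gave 4 calls with 1 on the lists. The replicate block over replicates 2 to 5 gave 0 calls and 0 on the lists. The replicate numbers do not pair the samples, since the correlation of deviations at numbers 2 to 5 was 0.0062, 0.16, -0.04 and -0.02, and no sample is said to share an animal. With no fold threshold the adjusted p gave 4 genes, adjusted p under 0.1 gave 17 and under 0.2 gave 41, and the unadjusted p gave 360 with the fold and 989 without. The methods' t-test gave 265 at its unadjusted threshold with the fold and 1 after adjustment. The count between Pax1-/- and Pax1+/- was 5 with the chip as a fixed block. Directions reversed within 1 chip for Pax9 (-0.52), Lyz2 (0.0943), Lyz1 (0.31), Slc4a1 (0.18) and Lgr5 (0.25) on chip 2, Dcx (0.0672), Mylpf (0.0017) and Sdc4 (0.56) on chip 1, and Sp7 (-0.13) on chip 3. These 9 are Pax9 and genes with an unadjusted p under 0.05 and the fold. Counting every named gene, the sign turned within at least 1 chip for 56 of 173, and for 17 of the 24 genes taken from the study's text. The cause of these changes was not tested. Leaving out chips, the Xist covariate, and the chip block with Pax1-/- arrays or between Pax1-/- and Pax1+/- were chosen after seeing the data.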

Other observations

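Genes of the thyroid hormone and insulin-like growth factor axes were among those with large single differences that no test called. Crym, which binds thyroid hormone in the cytosol, was at 4.85 to 5.95 in Pax1+/- and at 6.05 to 6.91 in WT, a difference of -1.23 (limma, adjusted p = 0.25). Igfbp3, a carrier of insulin-like growth factors, differed by -0.61 with overlap, and Car12, a membrane carbonic anhydrase, by -1.14 without overlap (adjusted p = 0.169). Hif1a, the oxygen-regulated transcription factor, differed by 0.71 with overlap. Edil3, a secreted integrin ligand, was detected on no Pax1+/- array and on 3 of 4 WT arrays, so it passed the filter through WT alone. Its WT mean was at least 1.78-fold above the Pax1+/- mean, a bound that leaves out the spread between arrays (limma, adjusted p = 0.376). In a fit on single probes 5 of 23051 probes were called (2 higher, 3 lower), of which 2 had no gene symbol and the others were A930005H10Rik, Egr1 and Esrp1, so Emx2 was not called there.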
